A study of Mus musculus with 2 samples.

Results

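Cycling neural progenitors of the mouse subventricular zone were described here as 582 nuclei of 28964 that passed the quality filters, 171 of 12114 in the MIP library and 411 of 16850 in the Control library. A nucleus was included when at least 3 of 12 mitotic genes were detected (Mki67, Top2a, Cenpf, Cenpe, Kif11, Kif15, Knl1, Aspm, Tpx2, Bub1b, Prc1 and Ect2). It was left out when it held more than 1 UMI, a count of distinct captured transcripts, of Rbfox3, of Pdgfra and Sox10 together, of Csf1r, Cx3cr1 and Inpp5d together, or of Col1a1 and Col1a2 together. The nuclei were thus chosen by the measured UMIs of these genes, whose levels are given as a description.

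The subventricular zone lines the lateral ventricles and keeps a pool of dividing neural progenitors after birth. In this tissue astroglia-like stem cells give rise to transit amplifying progenitors that express the receptor Egfr, and these divide into migrating neuroblasts of the GABAergic lineage under the homeobox factors Dlx1 and Dlx2. Glial progenitors arise from the same germinal zone.

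Mice were assigned on postnatal day 5 to modeled intestinal perforation (MIP) or to the control arm, and the subventricular zone was taken 48 hours later, on postnatal day 7. The tissue was snap frozen, and nuclei were isolated and counted in 1 library of MIP mice and 1 library of Control mice. Strain, sex and how many animals went into a library are not stated in the sources used here. With 1 library in each group no test between the groups can be made, so each comparison gives both values with exact 95% intervals that cover counting error only.

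The files held 12366 MIP and 16964 Control barcodes with 100823376 and 146730970 UMIs. The members carried 879403 UMIs in MIP and 2539204 in Control. Their median depth was 4113 UMIs per nucleus in MIP and 5125 in Control, below the 6488.5 UMIs of all passing MIP nuclei and the 6206.5 of all passing Control nuclei. No member barcode occurred in both libraries, although 115 barcode sequences were shared over all nuclei. Xist, the RNA of the inactive X chromosome, had 0 UMIs in MIP members and 8221 UMIs in 408 of 411 Control members, while Uty, Ddx3y, Eif2s3y and Kdm5d of the Y chromosome had 500 UMIs in 145 of 171 MIP members and 2 UMIs in 2 Control members. The libraries thus differed in these sex-linked transcripts as well as in treatment, and sex, library and MIP cannot be told apart in any difference given here.

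The label was checked against its markers. Top2a, the topoisomerase that untangles replicated DNA, was detected in 86.0% of MIP members and 83.5% of Control members, and Mki67, a coat protein of mitotic chromosomes, in 52.0% of MIP members and 57.2% of Control members. The centromere protein gene Cenpf was detected in 52.0% of MIP and 59.4% of Control members. Dlx2 (chr2:71543408-71546754, GRCm38), the one marker of the label that the rule did not use, was detected in 24.0% of MIP members (41 of 171, 17.8% to 31.1%) and 35.3% of Control members (145 of 411, 30.7% to 40.1%), against 4.7% of MIP and 8.3% of Control mature neurons, which have greater depth. Of 10 excitatory lineage markers, Eomes and Neurog2 had 0 UMIs in MIP members, and 11 and 2 UMIs in Control members. Others were present, such as Slc17a7 with 13 UMIs in MIP and 14 in Control members. The 10 summed to 35.3 CPM in MIP and 28.7 in Control members, against 69.9 and 62.2 in the other MIP and Control nuclei. Top2a, Mki67 and Cenpf were among the genes that chose the nuclei and so do not check the label, which leaves Dlx2. Dlx2 was also detected in 20.5% of MIP and 25.7% of Control neuroblasts without mitotic genes, a group chosen in part by Dlx2. By itself Dlx2 does not tell the members from neuroblasts.

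The mitotic genes share sequence features that the rule did not use. Promoters of genes expressed in G2 and M phase often hold a cell cycle homology element, with the letters TTTGAA or TTCGAA, which is known as a binding site of the DREAM and MuvB complexes, while genes of S phase often hold an E2F motif such as TTCCCGC. Stretches upstream of the start of 5 rule genes and of Pola1, the catalytic subunit of DNA polymerase alpha, are shown because they carry these letters, from RefSeq on GRCm38.p6, in the direction of the gene, with the motif or its reverse complement in capitals.
Mki67, chr7:135716450-135716509, minus strand: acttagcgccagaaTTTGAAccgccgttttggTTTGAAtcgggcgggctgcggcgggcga
Top2a, chr11:99024280-99024379, minus strand: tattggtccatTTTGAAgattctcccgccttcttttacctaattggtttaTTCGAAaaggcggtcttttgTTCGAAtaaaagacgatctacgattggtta
Kif11, chr19:37376322-37376381, plus strand: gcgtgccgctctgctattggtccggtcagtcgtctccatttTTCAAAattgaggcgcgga
Kif15, chr9:122951021-122951080, plus strand: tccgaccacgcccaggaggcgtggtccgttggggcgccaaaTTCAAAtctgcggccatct
Prc1, chr7:80294416-80294475, plus strand: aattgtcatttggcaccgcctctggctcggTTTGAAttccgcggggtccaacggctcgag
Pola1, chrX:93632292-93632351, minus strand: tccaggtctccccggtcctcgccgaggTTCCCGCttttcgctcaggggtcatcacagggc

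Over the 250 bases before the start and both strands, TTTGAA or TTCGAA stood in 7 of the 11 rule genes with a promoter in the table, in 25 of 55 other G2 and M phase genes, and in 12 of 55 S phase genes, against 19.6% of all 27025 genes with a promoter. TTTGAA and its reverse complement are different strings, and TTCGAA reads the same on both strands. In the last 60 bases before the start, the motif was held by 4 of 11 rule genes, 18 of 55 G2 and M phase genes, 3 of 55 S phase genes and 3.95% of all genes. TTCCCGC stood in 0 of 11 rule genes, 2 of 55 G2 and M phase genes and 15 of 55 S phase genes, against 4.38% of all genes. CCAAT, the box bound by NF-Y, stood in 9 of 11 rule genes, 37 of 55 G2 and M phase genes, 32 of 55 S phase genes and 22 of 31 neurogenic transcription factor genes, against 37.5% of all genes. Tpx2 had no promoter in the table. A match is a string of letters and no measure of binding.

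Members made up 1.41% of the MIP nuclei (1.21% to 1.64%) and 2.44% of the Control nuclei (2.21% to 2.68%), a log2 ratio of -0.79 (-1.06 to -0.53). Because a deeper nucleus detects more genes, every nucleus was also thinned to 2000 UMIs before the rule was applied, which left out 10.1% of MIP nuclei and 22.1% of Control nuclei as too shallow. The share was then 1.32% in MIP and 2.70% in Control, a log2 ratio of -1.03 (-1.32 to -0.74). Mature neurons do not divide. At this depth 0.225% of MIP ones (5 of 2218) and 0.313% of Control ones (8 of 2553) reached 3 of the 12 genes. At 2000 UMIs the share in members lay above that background in both libraries. At full depth, where the members were called, 58 of 2220 MIP (2.61%) and 166 of 2553 Control mature neurons (6.50%) reached 3 genes. These neurons were deeper, with medians of 14018 and 17107 UMIs in MIP and Control. The background among members at full depth was not measured.

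**Figure D1:**
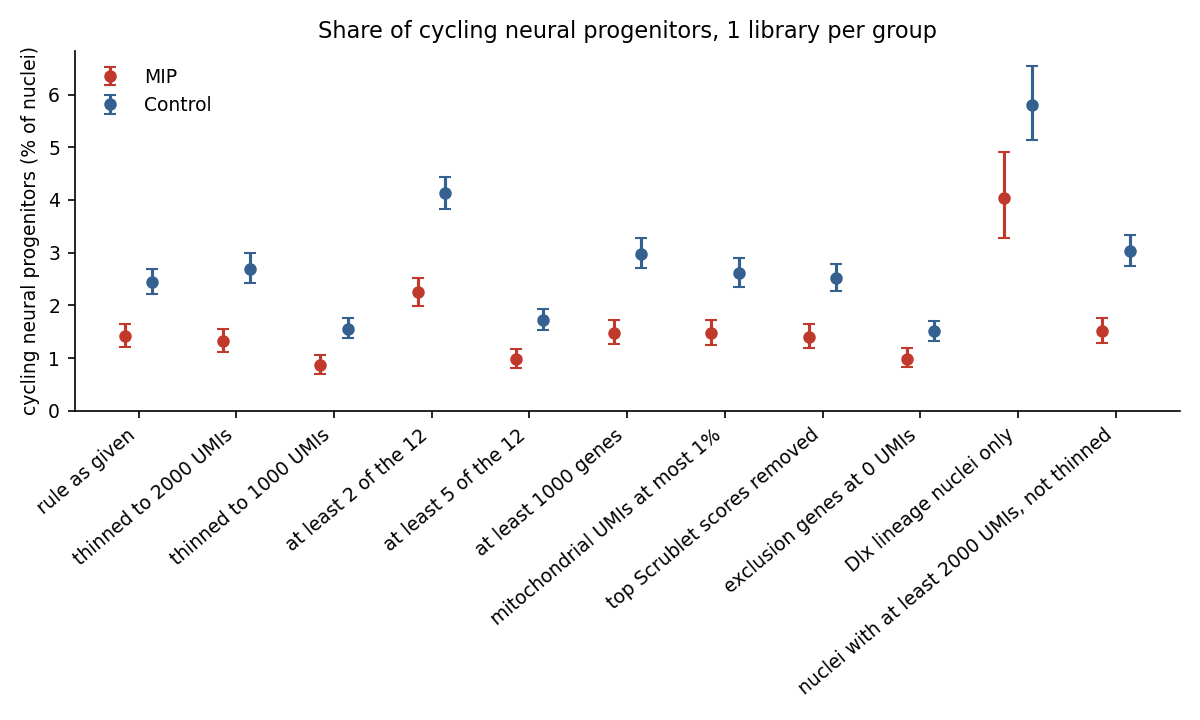
Share of cycling neural progenitors in percent of nuclei (y axis) under the rule as given and under 10 other settings (x axis), MIP left and Control right of each pair, 1 library per group, with exact 95% intervals for counting error. The MIP share lies below the Control share in each setting shown, with the log2 ratio nearest to 0 among Dlx lineage nuclei, where the share was 4.04% in MIP and 5.80% in Control.

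The lower share in MIP held when the denominator was limited to the lineage. Nuclei with at least 2 detected of Dlx1, Dlx2, Dlx5, Dlx6os1, Sp8 and Sp9, called Dlx lineage nuclei below, numbered 2354 in MIP and 4376 in Control. Of these, 95 (4.04%) were members in MIP and 254 (5.80%) in Control, a log2 ratio of -0.52 (-0.88 to -0.18). Over all nuclei with at least 3 of the 12 genes, whatever their type, the counts were 406 (3.35%) in MIP and 1025 (6.08%) in Control. Members were 42.1% of these in MIP and 40.1% in Control, so the other nuclei with mitotic transcripts were fewer in MIP as well. The nuclei with at least 3 of the 12 genes include 125 in MIP and 375 in Control that held more than 1 UMI of Rbfox3. Fewer dividing cells, fewer nuclei recovered from them and fewer mitotic transcripts in nuclei that do not divide cannot be told apart.

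Members differed in how many of the rule genes they held. The median was 6 of 12 in MIP and 7 of 12 in Control, and 33.3% of MIP members and 40.9% of Control members held 8 or more. Just inside the threshold, 30 MIP and 75 Control nuclei held exactly 3, with medians of 6241 and 5006 UMIs, and 30% and 45.3% of them were of the Dlx lineage. Just outside, 101 MIP and 284 Control nuclei met the other criteria with exactly 2 genes, with medians of 6382 and 6457 UMIs, and 33.7% and 33.8% of them were of the Dlx lineage.

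Members at the threshold carried more neuron transcripts and fewer cell cycle transcripts than the others. The summed level of 7 mature neuron markers (Rbfox3, Snap25, Syt1, Slc17a6, Drd1, Drd2 and Snhg11) was 5051 CPM (the usual unit of UMIs scaled to a common total) in MIP members with exactly 3 rule genes and 3478 in the Control ones, but 1010 in MIP and 982 in Control members with 8 to 12. Median UMIs of S, G2 and M phase genes per nucleus were 19 in MIP and 15 in Control with exactly 3 rule genes, and 83 in MIP and 107.5 in Control with 8 to 12. Of the 7 neuron markers the rule limited Rbfox3. Over all members the 7 markers summed to 2420 CPM in MIP and 1650 in Control, against 5928 and 5494 in the other nuclei of MIP and Control. Their part in the differences between the libraries was not tested, so results are also given for members with at least 5 rule genes where those differ.

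**Figure D2:**
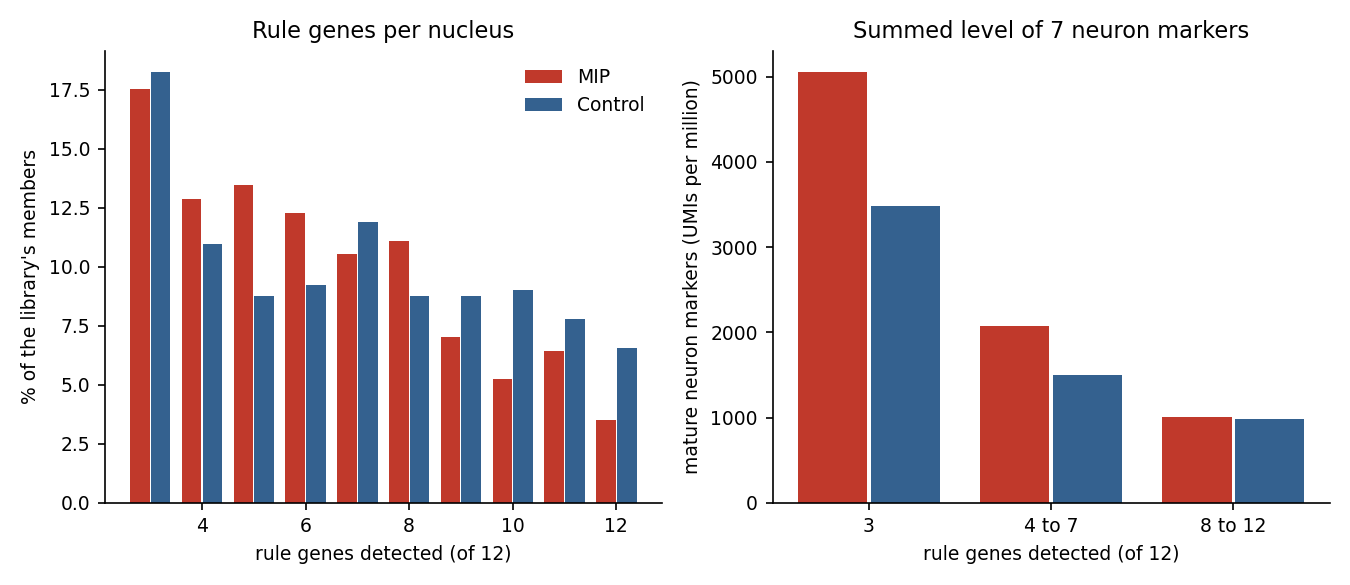
Left, percent of each library's members (y axis) by the number of the 12 rule genes detected (x axis); right, the summed level of 7 mature neuron markers in CPM (y axis) for members with 3, 4 to 7 and 8 to 12 rule genes, MIP left of Control, 1 library each. The neuron marker level is 5051 in MIP and 3478 in Control at 3 rule genes, and about the same, 1010 and 982, at 8 to 12.

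Markers of other cell types were present at low summed levels, some of them above their level in the other nuclei. All 6 fibroblast markers were at 0 in MIP members and summed to 15.4 CPM in Control members. The rule limited Col1a1 and Col1a2 of that list, Csf1r of the microglia list, and Pdgfra and Sox10 of the oligodendrocyte list. The sums of these lists are thus partly set by the choice of nuclei. Endothelial markers summed to 73.9 CPM in MIP and 125 in Control members, against 21.4 and 29.7 in the other MIP and Control nuclei. Mural markers summed to 64.8 in MIP and 104 in Control members, against 42.1 and 54.0 in the other MIP and Control nuclei, and microglia and macrophage markers to 121 in MIP and 142 in Control. Ependymal markers summed to 241 CPM in MIP and 239 in Control members, against 45.4 and 52.2 in the other MIP and Control nuclei. At least 3 markers of the endothelial, mural or ependymal list were detected in 4 MIP and 16 Control members. Oligodendrocyte lineage markers summed to 374 CPM in MIP and 283 in Control members, and excitatory lineage markers to 35.3 in MIP, with 4 of 10 at 0, and 28.7 in Control, with 1 of 10 at 0. Without the members holding at least 3 endothelial, mural or ependymal markers, 879 of 12328 genes were at least 1.5-fold higher and 2106 lower. Of the list and gene values, 230 stayed within their range and 1, Cdc20b, moved to -1.66, from -2.79. The part of oligodendrocyte and excitatory lineage transcripts in the results was not tested.

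Members were set beside 3 other cell groups of the same libraries. These were 364 MIP and 494 Control nuclei with at least 2 Egfr UMIs and none of the 12 mitotic genes, 619 MIP and 1005 Control Dlx lineage nuclei with Dcx and none of the 12 genes, called neuroblasts below, and 71 MIP and 167 Control nuclei that held at least 3 of the 12 genes with more than 1 UMI of Pdgfra and Sox10, called cycling oligodendrocyte precursors. Egfr, Dlx genes and Dcx chose the first and second of these and, apart from the Dlx2 shares above, are not compared with them.

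Insm1, a zinc finger factor of dividing neuronal progenitors, stood out in members, with 33.0 CPM in MIP members and 33.9 in Control members. It had 2.2 in MIP and 3.0 in Control Egfr nuclei, 2.5 and 6.1 in MIP and Control neuroblasts, and 2.3 and 2.4 in MIP and Control cycling oligodendrocyte precursors. Ccnd2, the D-type cyclin of neural progenitors, had 834 CPM in MIP and 729 in Control members, against 130 and 120 in MIP and Control Egfr nuclei and 337 and 321 in MIP and Control neuroblasts. Cdk6, a kinase partner of D-type cyclins, had 148 CPM in MIP and 200 in Control members, against 42.4 and 43.1 in MIP and Control Egfr nuclei and 9.2 and 11.3 in MIP and Control neuroblasts. Ccnd2 and Cdk6 were also lower in cycling oligodendrocyte precursors, at 102 and 16.2 in MIP and 140 and 47.6 in Control.

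In members, Slc1a3, Gli3 and Robo2 lay between Egfr nuclei and neuroblasts, while Hes6 and Sox11 were above both in MIP and in Control. The astroglial marker Gfap did not lie between in either library, at 7.96 CPM in MIP and 13.8 in Control members, 89.9 and 91.1 in MIP and Control Egfr nuclei, and 9.52 and 14.8 in MIP and Control neuroblasts. These genes were chosen after their values were seen. Slc1a3, the glutamate transporter of astroglia and stem cells, had 884 CPM in MIP and 775 in Control members, 2886 and 2016 in MIP and Control Egfr nuclei, and 357 and 221 in MIP and Control neuroblasts. Gli3, a transcription factor of Hedgehog signalling, had 158 in MIP and 180 in Control members, 251 and 268 in MIP and Control Egfr nuclei, and 38.4 and 26.1 in MIP and Control neuroblasts. Robo2, a receptor for the guidance cue Slit, ran the other way, with 884 in MIP and 886 in Control members, 508 and 560 in MIP and Control Egfr nuclei, and 1843 and 2357 in MIP and Control neuroblasts. Hes6, a Hes family factor that promotes neuronal differentiation, had 66.0 CPM in MIP and 59.1 in Control members, against 20.7 and 17.1 in MIP and Control Egfr nuclei and 26.8 and 17.5 in MIP and Control neuroblasts. Sox11 and Igfbpl1, genes of early neurons, were in members at 318 and 243 CPM in MIP and 268 and 229 in Control, near their neuroblast levels of 266 and 222 in MIP and 213 and 254 in Control.

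**Figure D3:**
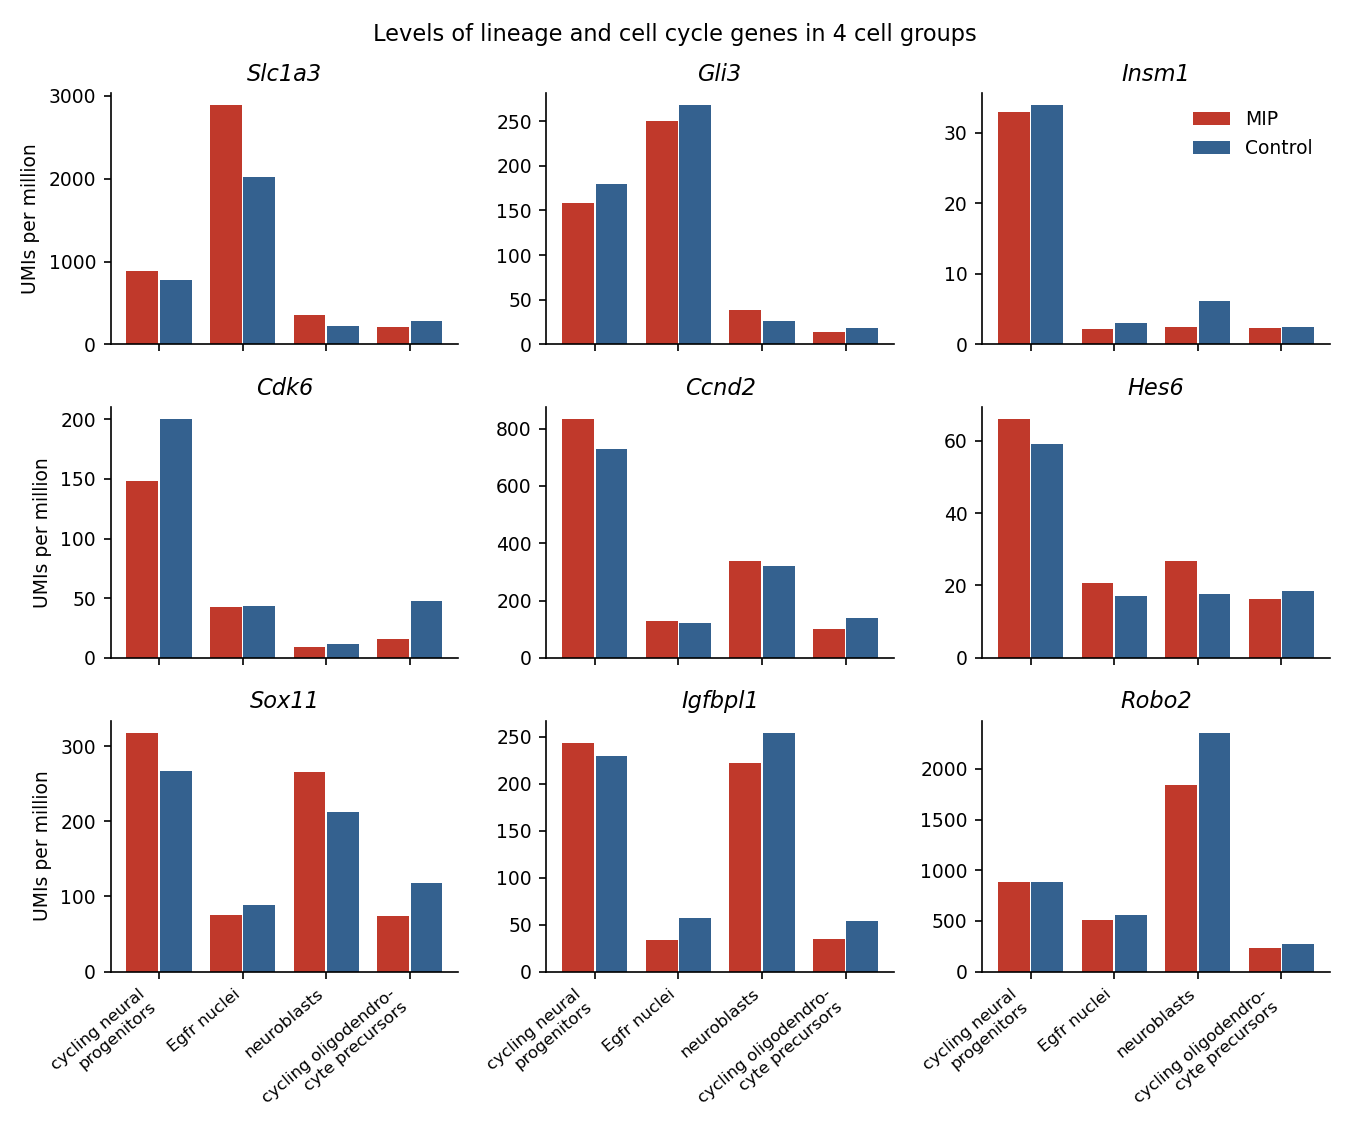
Levels of 9 genes in CPM (y axis, linear, from 0) in cycling neural progenitors, Egfr nuclei without mitotic transcripts, neuroblasts without mitotic transcripts and cycling oligodendrocyte precursors (x axis), MIP left of Control, 1 library each, so bars have no error. Insm1, Cdk6 and Ccnd2 are highest in the members, while Slc1a3 and Gli3 lie between Egfr nuclei and neuroblasts.

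Genes were ranked by the smaller of the MIP and Control log2 differences between members and the higher of Egfr nuclei and neuroblasts, among genes with at least 20 UMIs in each library's members, with 1 CPM added to each level. Of the 100 highest, 72 stood in the cell cycle and histone lists. The leading genes outside the lists included Cenpa, the histone H3 variant of centromeres, at 130 CPM in MIP and 129 in Control members, and Stil, a centriole duplication gene, at 154 in MIP and 144 in Control members. The noncoding RNA Lockd, named for its place downstream of Cdkn1b, had 225 CPM in MIP and 248 in Control members. This ranking follows the rule that chose the nuclei.

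The Dlx lineage accounted for 95 of 171 MIP members (55.6%, 47.8% to 63.1%) and 254 of 411 Control members (61.8%, 56.9% to 66.5%), a log2 ratio of -0.15 (-0.51 to 0.19). The share depended on depth, and in members thinned to 2000 UMIs it was 41.2% in MIP and 41.6% in Control. None of the 6 Dlx lineage genes was detected in 25.7% of MIP members and 25.8% of Control members. The interval of the ratio included 0 at both depths, which does not show that the shares were alike.

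Dlx lineage members and the remaining members had different levels of lineage genes in both libraries. Dcx, the microtubule protein of migrating neuroblasts, was detected in 74.7% of MIP and 78.0% of Control Dlx lineage members, against 36.8% of MIP and 25.5% of Control members with 1 or 0 of the 6 genes. Igfbpl1 had 432 CPM in MIP and 320 in Control Dlx lineage members, against 68.0 and 78.4 in the remaining MIP and Control members. Nrxn3, a synaptic adhesion gene, had 22198 CPM in MIP and 17097 in Control Dlx lineage members, against 5749 and 2761 in the remaining MIP and Control members. Egfr ran the other way, with 257 in MIP and 333 in Control Dlx lineage members and 676 and 881 in the remaining MIP and Control members. At least 3 of 10 stem cell and astroglia markers were detected in 25.3% of MIP and 35.0% of Control Dlx lineage members, against 55.3% and 60.5% of the remaining MIP and Control members. Olig1 or Olig2, factors of the oligodendrocyte lineage, was detected in 22.4% of the remaining MIP members and 31.2% of the remaining Control members.

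The balance of S phase against G2 and M phase was close between the libraries. S phase genes gave 39.3% of the UMIs of S, G2 and M phase genes, rule genes included, in MIP members (5702 UMIs) and 38.2% in Control members (15507 UMIs), a log2 ratio of 0.04 (-0.002 to 0.09). More S than G2 and M phase UMIs were held by 62 MIP members (36.3%) and 137 Control members (33.3%). The S phase genes summed to 6484 CPM in MIP and 6107 in Control members, and G2 and M phase genes outside the rule to 7066 in MIP and 6896 in Control. In cycling oligodendrocyte precursors the S share was 43.3% in MIP and 38.6% in Control.

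For the comparison of genes, the UMIs of all members of a library were summed and set per total UMIs, and a gene was called when its level in MIP was at least 1.5-fold higher or lower than in Control, among 12651 genes with at least 20 UMIs over both libraries. By this rule 929 genes (7.34%) were higher and 2191 (17.3%) lower in MIP, with a median log2 ratio of -0.07. The interval lay above 0 for 1143 genes (9.03%) and below 0 for 1368 genes (10.8%). Short genes were called lower more often. Of the 3163 genes with the shortest spans 29.9% were lower, against 10.5% of the 3162 with the longest spans. The short genes had a median of -0.30 in members and -0.38 in all other nuclei, and ribosomal protein genes had a median of -0.66 in members and -0.78 in the other nuclei.

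Few cell cycle genes passed 1.5-fold between the members of the libraries, where 7.34% of all genes were higher and 17.3% lower. The rule required mitotic genes in both libraries, so levels of other cell cycle genes in members are not independent of that choice. Of the 12 rule genes, 0 were higher and 0 lower by 1.5-fold, as a description of genes that chose the nuclei. Of 66 other G2 and M phase genes, 1 was higher and 3 were lower (median 0.04), against -0.66 in all other nuclei, where 38 were lower. Cdc25c, the phosphatase that opens mitosis by activating Cdk1, was higher, with 101 UMIs (115 CPM) in MIP and 170 UMIs (67.0 CPM) in Control, a log2 ratio of 0.78 (0.41 to 1.14). Ube2c, the ubiquitin-conjugating enzyme of the anaphase-promoting complex, was lower, with 11 UMIs (12.5 CPM) in MIP and 96 UMIs (37.8 CPM) in Control, a log2 ratio of -1.60 (-2.65 to -0.69). Espl1, the separase that splits sister chromatids, and Cdca8, a subunit of the chromosomal passenger complex, were lower at -0.71 (-1.33 to -0.14) and -0.70 (-1.15 to -0.28).

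Of 72 S phase genes, 5 were higher and 4 lower in MIP, with a median of 0.03. Of all genes, 7.34% were higher and 17.3% lower. Dtl, the adaptor that marks replication licensing factors for destruction, was higher, with 112 UMIs (127 CPM) in MIP and 184 UMIs (72.5 CPM) in Control, a log2 ratio of 0.81 (0.46 to 1.16). Mcm4 and Mcm5, subunits of the replicative helicase, were past 1.5-fold at 0.65 (-0.03 to 1.31) and 0.67 (-0.15 to 1.45), with intervals that included 0. Cdc6, which loads that helicase, was at 0.84 (0.03 to 1.63), with 23 UMIs in MIP and 37 in Control. Dna2, a nuclease of lagging strand synthesis, was lower at -0.63 (-1.18 to -0.11), and its value over the other nuclei was 0.14. Among 20 cyclin, kinase and G1 genes 1 was higher and 4 lower. Mybl2, a factor of the MuvB complex, was higher at 0.69 (0.15 to 1.21), while Foxm1, an activator of mitotic genes, and Cks2, a kinase subunit, were lower at -0.69 (-1.26 to -0.16) and -0.78 (-1.46 to -0.15).

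Within Dlx lineage members, where 9.64% of 10880 genes were higher and 20.6% lower by 1.5-fold, mature neuron markers summed to 959 CPM in MIP and 1605 in Control, and their part in the counts was not tested. Of 71 S phase genes, 15 were higher and 2 lower (median 0.25) against -0.06 over all genes, and of 66 G2 and M phase genes 5 were higher and 2 lower (median 0.21). With at least 5 rule genes, which left 73 MIP and 195 Control Dlx lineage members, the S phase counts were 11 higher and 7 lower (median 0.13), and the G2 and M phase median was 0.13, in nuclei where 9.94% of 9940 genes were higher. Members with 1 or 0 of the 6 Dlx genes, where 11.6% of 10153 genes were higher and 22.3% lower, had medians of -0.13 for S phase and -0.12 for G2 and M phase genes. With at least 5 rule genes those medians were -0.046 for S phase, with 8 of 62 genes higher and 9 lower, and 0.045 for G2 and M phase, with 4 of 64 higher and 4 lower, so the G2 and M phase direction turned.

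Of the 27 lists the lowest median was that of histone cluster genes, whose RNAs are made in S phase and mostly lack a poly(A) tail. Of 17 with enough UMIs, 0 were higher and 14 lower in MIP members, with a median of -1.10. Over all genes 7.34% were higher and 17.3% lower. Hist1h1e, a linker histone gene, had 30 UMIs (34.1 CPM) in MIP and 229 UMIs (90.2 CPM) in Control, a log2 ratio of -1.40 (-2.0 to -0.85). Hist1h1b, another linker histone gene, had 28 UMIs (31.8 CPM) in MIP and 193 (76.0 CPM) in Control, a log2 ratio of -1.26 (-1.88 to -0.68). Hist1h1c was at -0.17 (-0.88 to 0.50). In all other nuclei 1510 of all 12651 genes were lower. The list was lower there too, with a median of -1.40 and 15 lower. In Dlx lineage members the median was -0.53, with 7 of 15 lower.

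**Figure D4:**
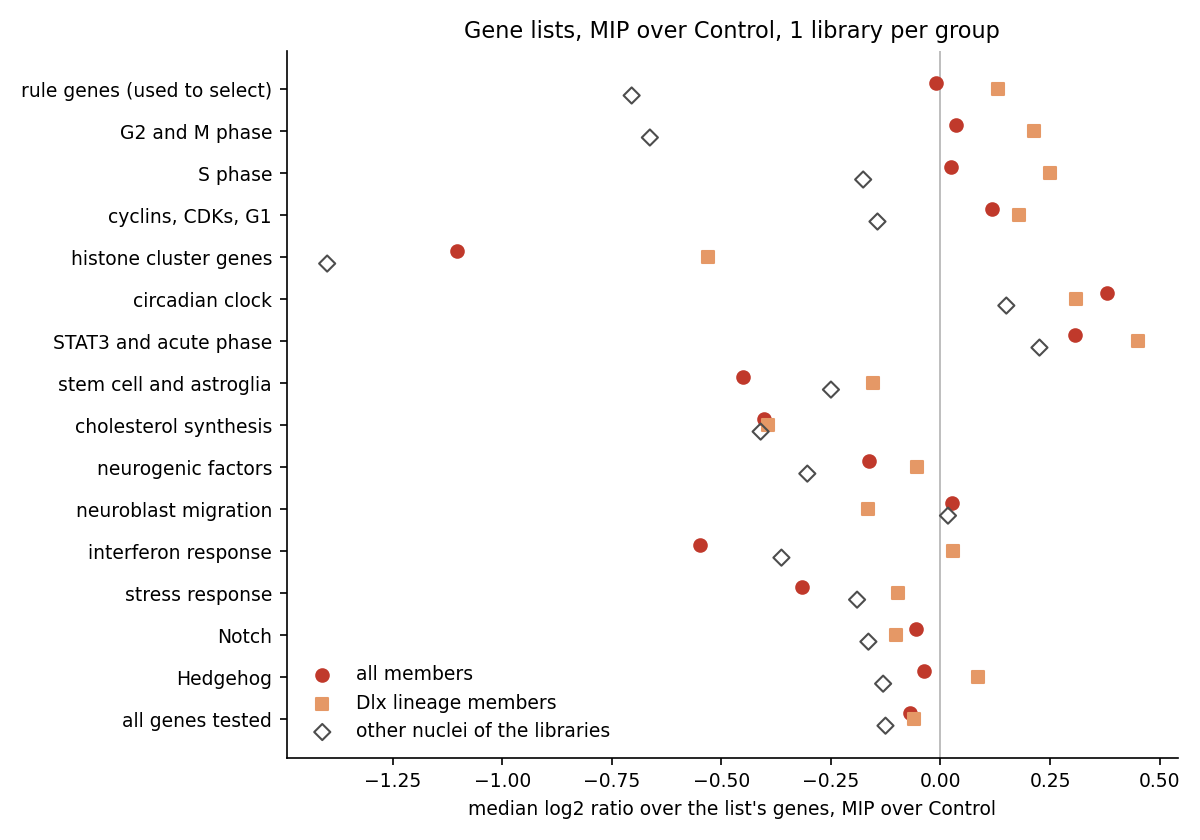
Median log2 ratio of MIP over Control (x axis) over the tested genes of each list (y axis) in all members, in Dlx lineage members and in the other nuclei of the libraries, 1 library per group and no error over libraries. G2 and M phase genes lie at 0.04 in members and at -0.66 in other nuclei, and of the lists drawn histone cluster genes are lowest in each set. Members were chosen by mitotic genes, so the G2 and M phase value in members is not independent of that choice.

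Of 28 stem cell and astroglia genes, 2 were higher and 10 lower in MIP members, beside 7.34% higher and 17.3% lower of all genes. Their median was -0.45, against a median of -0.25 in the other nuclei. The median was lower still in the members with 1 or 0 of the 6 Dlx lineage genes, 76 in MIP and 157 in Control. There 1 of 27 genes was higher and 16 were lower (median -0.67), and in those with at least 5 rule genes (46 MIP and 96 Control nuclei) 1 of 24 was higher and 15 lower (median -0.95). Of all 7917 genes tested in those last nuclei, 15.1% were higher and 21.3% lower. Dlx lineage members had a median of -0.16, and Egfr nuclei without mitotic transcripts had a median of 0.02. This split was chosen after the values were seen.

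Single genes of that list show the size of the difference in the members with 1 or 0 Dlx lineage genes. Slc4a4, a bicarbonate transporter of astrocytes, had 71 UMIs in 31 of 76 MIP nuclei (156 CPM) and 466 UMIs in 73 of 157 Control nuclei (487 CPM), a log2 ratio of -1.65 (-2.03 to -1.28), against -0.18 in Egfr nuclei. Gpc5, a heparan sulfate proteoglycan gene, had 241 UMIs (529 CPM) in MIP and 1342 UMIs (1403 CPM) in Control, a log2 ratio of -1.41 (-1.61 to -1.21), against 0.08 in Egfr nuclei. Fabp7, the fatty acid binding protein of radial glia, was at -1.47 (-1.89 to -1.06), and at -0.96 in Egfr nuclei. Tnc, an extracellular matrix protein of the stem cell niche, had 4 UMIs in 3 MIP nuclei and 174 UMIs in 32 Control nuclei, with 74.1% of the Control UMIs in 10 nuclei. Slc1a3 was close to even, with 1005 CPM in MIP and 1144 in Control, a log2 ratio of -0.19 (-0.35 to -0.03), and 0.11 (-0.08 to 0.29) with at least 5 rule genes.

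**Figure D5:**
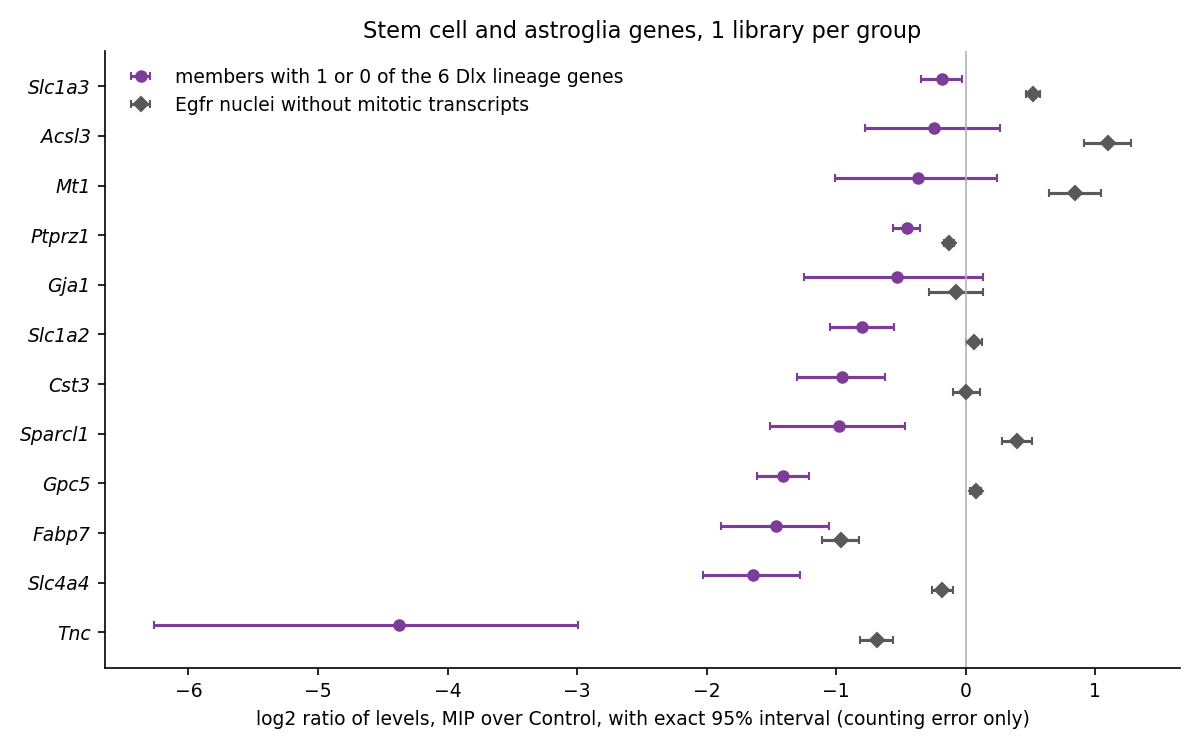
Log2 ratio of MIP over Control (x axis) with exact 95% intervals for counting error for 12 stem cell and astroglia genes with at least 100 UMIs in members with 1 or 0 of the 6 Dlx lineage genes (circles), beside Egfr nuclei without mitotic transcripts (diamonds), 1 library per group. Each of the 12 genes has a lower ratio in the members than in the Egfr nuclei, and Gpc5, Fabp7, Slc4a4 and Tnc lie at -1.41 or below.

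Hes5 and Lrig1, chosen after their values were seen, were lower in the same nuclei. Of 20 Notch genes there, 1 was higher and 7 lower (median -0.27), and of 20 Egf, Fgf and Ras genes 2 were higher and 6 lower, beside 11.6% higher and 22.3% lower of all genes. Hes5, a target of Notch, had 13 UMIs in 8 MIP nuclei (28.5 CPM) and 93 UMIs in 47 Control nuclei (97.2 CPM), a log2 ratio of -1.77 (-2.73 to -0.93). Lrig1, a brake on Egf receptors, had 24 UMIs (52.6 CPM) in MIP and 177 UMIs (185 CPM) in Control, a log2 ratio of -1.81 (-2.49 to -1.19). Egfr itself was at -0.38 (-0.58 to -0.19). In Dlx lineage members Hes5 went the other way at 0.52, with 18 UMIs in MIP and 47 in Control. Lrig1 was at -0.27 and Egfr at -0.37 in Dlx lineage members. Of the whole Notch list, 3 of 23 genes were higher and 5 lower over all members, with a median of -0.06, and of the Hedgehog list 2 of 18 were higher and 2 lower (median -0.04), beside -0.07 over all genes. Mature neuron markers were at 3777 CPM in the MIP and 1725 in the Control members with 1 or 0 Dlx lineage genes, and their part in these differences was not tested. Fewer astroglial nuclei among the members and less of these transcripts per nucleus cannot be told apart.

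Of 45 neurogenic transcription factor genes, 0 were higher and 8 lower, and their median was -0.16. These 17.8% lower stand near the 17.3% of all genes that were lower. St18, a zinc finger factor of the Myt1 family, had 38 UMIs (43.2 CPM) in MIP and 254 (100 CPM) in Control, a log2 ratio of -1.21 (-1.74 to -0.72), and it was at -0.95 (-1.51 to -0.43) in Dlx lineage members. The antisense transcript Dlx1as was at -0.82 (-1.07 to -0.58), and since whether counting used strand is not given in the sources used here, its reads cannot be told from those of Dlx1, which was at -0.20 (-0.45 to 0.05). Sp9, a zinc finger factor of the GABAergic lineage, was at 0.48 (0.14 to 0.82) in all members. In Dlx lineage members, which Sp9 helped to choose, it was at 0.86 (0.51 to 1.20), as a description. It had 106 UMIs (250 CPM) in MIP and 218 UMIs (138 CPM) in Control there. Dcx was at 0.43 (0.23 to 0.63), Egfr at -0.19 (-0.35 to -0.03) and Insm1 at -0.04 (-0.70 to 0.58) in all members. Of 34 neuroblast migration genes 3 were higher and 3 lower (median 0.03).

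Of 18 circadian clock genes, 7 were higher in MIP and 0 lower, beside 7.34% higher and 17.3% lower of all genes. Their median was 0.38, against 0.15 in all other nuclei and 0.38 in neuroblasts. Hlf, a PAR-domain output factor of the clock, had 54 UMIs (61.4 CPM) in MIP and 90 UMIs (35.4 CPM) in Control, a log2 ratio of 0.79 (0.28 to 1.30). Nr1d2, a repressor of the clock, was at 0.66 (0.11 to 1.19) and Per1 at 1.06 (0.18 to 1.92), but Per1 was at -0.055 in members thinned to 2000 UMIs. In members with at least 5 rule genes the median of the list was 0.06, with 4 higher and 1 lower, where 8.54% of 11445 genes were higher and 18.7% lower. The time of day of collection is not stated in the labels.

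Genes of the response to inflammation differed by list, beside 7.34% higher and 17.3% lower of all genes in members. Of 13 STAT3 and acute phase genes, 2 were higher and 1 lower in MIP members, with a median of 0.31, against 0.23 in the other nuclei. Stat3, the factor downstream of interleukin 6 family receptors, had 52 UMIs (59.1 CPM) in MIP and 93 UMIs (36.6 CPM) in Control, a log2 ratio of 0.69 (0.17 to 1.20), and 1.17 in the other nuclei. Lifr, the leukemia inhibitory factor receptor, was at 0.91 (0.35 to 1.45), while Il6st, the receptor subunit it pairs with, was the lower one at -0.71 (-1.80 to 0.24). Of 12 interferon response genes 0 were higher and 5 lower (median -0.55), but only 5 had enough UMIs in Dlx lineage members, where their median was 0.03, and their median was -0.30 without members holding markers of other cell types. Of 12 NF-kB and cytokine genes 0 were higher and 3 lower, and of 20 glucocorticoid targets 3 were higher and 8 lower.

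Of 25 cholesterol and lipid synthesis genes, 0 were higher and 6 lower in MIP members, which is 24% lower beside 17.3% of all genes. Their median was -0.40 in members and -0.41 in the other nuclei. Msmo1, a sterol demethylating enzyme, had 29 UMIs (33.0 CPM) in MIP and 196 UMIs (77.2 CPM) in Control, a log2 ratio of -1.23 (-1.84 to -0.66). Fasn, the fatty acid synthase, had 9 UMIs in MIP and 70 in Control, a log2 ratio of -1.43 (-2.62 to -0.42). In Dlx lineage members 9 of 25 were lower (median -0.39), which is 36% beside 20.6% of all genes there.

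The other lists held fewer or mixed calls, beside 7.34% higher and 17.3% lower of all genes. Of 22 EGF, FGF and Ras genes 2 were higher and 6 lower (median -0.18), of 23 BMP, TGF-beta and Id genes 1 and 5 (median -0.18), and of 21 Wnt genes 3 and 3 (median 0.15). Of 24 IGF and growth genes 2 were higher and 4 lower, of 20 CDK inhibitor and p53 genes 1 and 5, of 15 checkpoint and repair genes 0 and 2, and of 31 chromatin genes 1 and 2. Of 18 stress response genes 0 were higher and 6 lower, of 22 hypoxia and glycolysis genes 1 and 4, of 19 apoptosis genes 1 and 3, and of 12 immediate early genes 3 and 5.

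Genes were also ranked by whichever end of the interval lay closer to an even ratio. Over all members the 10 highest included Alk, Cdh9, Thsd7b, Adamtsl1, Olfm3, Zfp804a, Lncpint, Zfp948 and Asic2. Several of these rested on few nuclei. Alk, a receptor tyrosine kinase gene (chr17:71868972-72604627, GRCm38), had 153 UMIs in MIP and 150 in Control, but 81.7% of the MIP UMIs lay in 10 nuclei and 129 of the 153 in members with 1 or 0 Dlx lineage genes. Its log2 ratio was 1.56 (1.22 to 1.89) in all members and 0.11 (-0.61 to 0.78) in Dlx lineage members. Cdh9, a cadherin gene, was at 1.58 (1.13 to 2.03) in all members and at -1.75 (-3.43 to -0.46) in Dlx lineage members, and 90.8% of its MIP UMIs lay in 10 nuclei.

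Zfp948 and Lncpint were spread over more nuclei. Zfp948, a zinc finger gene (chr17:21567008-21588699), had 87 UMIs in 58 MIP nuclei and 100 UMIs in 82 Control nuclei, a log2 ratio of 1.33 (0.90 to 1.76), and was at 1.72 (1.16 to 2.28) in Dlx lineage members and 0.53 in the other nuclei. Lncpint, a p53-induced long noncoding RNA, was at 1.31 (0.92 to 1.70) in all members, 0.75 (0.04 to 1.43) in Dlx lineage members and 0.50 in the other nuclei.

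The 10 lowest over all members were Cdc20b, Sfta3-ps, C030005K06Rik, Dcun1d2, Fn1, Cmss1, Imp3, AY036118, Cfap47 and Gm29683. Cmss1 and AY036118 were lower in the whole libraries, at -1.28 (-1.39 to -1.18) and -1.21 (-1.30 to -1.11) in members and -1.58 and -1.53 in the other nuclei. Imp3, a component of the small subunit processome (chr9:56937475-56938398), had 4 UMIs in MIP and 69 in Control members, a log2 ratio of -2.58 (-4.49 to -1.16), and -0.84 in the other nuclei. Fn1, the fibronectin gene, had 5 UMIs in 4 MIP nuclei and 80 UMIs in 30 Control nuclei, with 75% of the Control UMIs in 10 nuclei. Dcun1d2, a gene of cullin neddylation, had 6 UMIs in MIP and 91 in Control, a log2 ratio of -2.39 (-3.88 to -1.22).

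Within Dlx lineage members the 10 highest were Abca1, Mapk4, Gm20646, Mid1, Sp4, Yme1l1, Dtl, Tent2, Srbd1 and Atad5, none with more than 13.8% of its MIP UMIs in 1 nucleus. Abca1, the cholesterol efflux transporter, had 80 UMIs (189 CPM) in MIP and 120 UMIs (75.8 CPM) in Control, a log2 ratio of 1.32 (0.89 to 1.74), against -0.36 in the remaining members and 0.66 in neuroblasts. Mapk4, an atypical MAP kinase gene, was at 1.03 (0.69 to 1.35), and Mid1, an X-linked microtubule-associated ubiquitin ligase gene, at 0.94 (0.63 to 1.24). Dtl was at 1.07 (0.60 to 1.53), and Atad5, a gene for unloading the replication clamp, at 0.88 (0.57 to 1.18).

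The 10 lowest in Dlx lineage members were Grik1, Acer3, Rgs22, Trhde, Agbl4, Ptchd4, Nek1, Adamts18, Cdh12 and Ptgds. Nek1, a kinase gene of cilia and DNA repair, had 6 UMIs in 5 MIP nuclei and 95 UMIs in 65 Control nuclei, a log2 ratio of -2.08 (-3.56 to -0.91), against -0.26 in the other nuclei. Acer3, an alkaline ceramidase gene, had 2 UMIs in MIP and 68 UMIs in 35 Control nuclei, a log2 ratio of -3.19 (-6.26 to -1.28). Grik1, a kainate receptor gene, had 13 UMIs in 8 MIP nuclei and 302 UMIs in 52 Control nuclei, a log2 ratio of -2.64 (-3.56 to -1.84), but 1.48 in the remaining members. For Ptgds and Rgs22 1 nucleus held 77.8% and 66.7% of the Control UMIs.

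A few members carried transcripts of multiciliation and motile cilia genes. Cdc20b, a gene of multiciliated cell precursors, had 17 UMIs in 2 MIP nuclei and 339 UMIs in 16 Control nuclei, and Deup1, the deuterosome scaffold from which multiciliated cells build their centrioles, had 19 UMIs in 5 MIP and 135 UMIs in 14 Control nuclei. Of 19 genes of multiciliation and motile cilia, chosen after the ranking was seen, at least 6 were detected in 2 of 171 MIP members (1.17%, 0.142% to 4.16%) and 9 of 411 Control members (2.19%, 1.01% to 4.12%). These nuclei held 84.0% of the MIP and 83.8% of the Control members' UMIs of those genes, which follows in part from choosing them by the genes. Outside the members, 48 of 11943 MIP and 98 of 16439 Control nuclei met the same cut. The median number of rule genes in the members that met it was 3 in MIP and 4 in Control. Of these members, 0 in MIP and 3 in Control were of the Dlx lineage. Over all members, Mcidas, Ccno and Gmnc of the 19 genes had 1, 1 and 2 UMIs in MIP and 27, 9 and 0 in Control. Foxj1, Cfap299, Hydin, Ak7 and Dnah12 of the 19 genes are also in the ependymal list. The cut thus does not tell multiciliated precursors from ependymal cells. Multiciliated precursors are known to use mitotic regulators while making centrioles. Whether these members were dividing was not measured.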

How the data were processed

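Single-nucleus RNA-seq gave 1 MIP and 1 Control library. The authors deposited unnormalized UMI counts for 32285 features in each barcode; Cell Ranger 5.0.1 and mm10 come from the submitters' processing notes. How the authors called barcodes is not given in the sources used here.

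Barcodes with at least 500 genes and at most 5% mitochondrial UMIs were kept. The members and gene lists were chosen with earlier results of these data known. UMIs were summed over members, and log2 ratios of levels per total UMIs, MIP over Control, carry exact 95% intervals of a ratio of 2 Poisson counts, while shares carry Clopper-Pearson intervals, both for counting error only. Intervals and calls were tested on simulated data, with a Poisson count drawn independently for each gene and library. Clustering of a gene's UMIs in few nuclei was not simulated. The test thus does not show how the intervals fare for such genes. No doublets were removed, since Scrublet (Scanpy 1.11.5) marked 0 barcodes in both libraries with its automatic threshold. As an alternative its top scores were removed, 0.8% per 1000 barcodes. TMM scaling used edgeR 4.0.16. Python 3.11.15, NumPy 2.4.6, SciPy 1.17.1 and pandas 2.3.3 were used.

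The genes named by rule were the 10 highest and 10 lowest by the end of the interval closer to an even ratio, among genes with 60 UMIs or more in whichever library was higher and a level at least 0.5 times that of the other nuclei. Mitochondrial, ribosomal protein, haemoglobin genes, Xist, Tsix, Gm29650 and the 4 Y-linked genes were left out. The rule genes, the GABAergic, transit amplifying and neuroblast markers, and the 3 highest and 3 lowest genes of each list were also named. Other genes (such as Gpc5, Fabp7, Hes5, Slc1a3, Gli3, Nr1d2, Cdk6, Ccnd2, Nrxn3, Cenpa, Stil, Lockd, Deup1 and those ranked within Dlx lineage members) were chosen after their values were seen. A few genes that the rules would name are not reported here. Gene positions are from GENCODE M21 (GRCm38), which matched 32235 features.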

Additional observations from a re-analysis of the deposited data

How the results depend on the processing

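The share of members was lower in MIP than in Control under each of the 10 other settings, with log2 ratios of -1.03 to -0.52, the smallest being -0.52 for Dlx lineage nuclei only. The phase difference was -0.0041 in members thinned to 2000 UMIs. Counts of genes past 1.5-fold were 2975 higher and 6818 lower with no limit on low counts, and 319 higher and 656 lower among genes with at least 100 UMIs. TMM scaling shifted log2 ratios by 0.03. Among named genes and settings, 1468 values stayed within the 95% interval of the reported value, 132 lay outside it and 16 changed sign. A change of sign was counted only where the reported value was past 1.5-fold with an interval that excluded 0. In Dlx lineage members these 16 included -0.41 for Asic2, -1.75 for Cdh9, 0.095 for Id1, 0.37 for Id3, -0.76 for Lin28b, -0.70 for Nrg3, -0.50 for Olfm3, -1.05 for Thsd7b, 0.065 for Vegfa and -0.45 for Zfp804a. With no UMI of the exclusion genes allowed they were -0.015 for Adamtsl1, -0.0021 for Asic2, -0.22 for Nrg3 and -1.35 for Olfm3, and in thinned members 0.026 for Akt2 and -0.055 for Per1. The cause was not tested. For genes, the settings with at least 5 rule genes, with no exclusion UMI and without members with other cell types' markers, and the ranking and list counts within each Dlx split, were added after the data were seen, as was the share among nuclei with at least 2000 UMIs, not thinned. No paired analysis was possible because each group has 1 library, and no library could be left out for the same reason. Depth limits single genes, since the members gave 879403 UMIs in MIP and 2539204 in Control.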
